A study of Caenorhabditis elegans with 12 samples.

Results

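The small interfering RNAs (siRNAs) described here are those assigned to 8 genes whose proteins build or regulate P granules: pgl-1, pgl-3, glh-1, glh-2, glh-4, deps-1, meg-3 and meg-4. The genes were chosen by name, and their values were taken from the entries that the deposited tables class as siRNA and as 26G siRNA. Each gene had 1 entry of each class, so that 8 genes of 19320 siRNA target genes and 16 entries of 34159 siRNA and 26G siRNA entries are covered. The tables held 0 entries of any other class for these genes, so nothing here measures their mRNAs. The values come from 12 small RNA libraries of whole adult C. elegans grown at 20 °C, in 7 groups. In the depletion experiment, control animals carried wrdSi51, a transgene on chromosome II that expresses the auxin receptor component TIR1, mTagBFP2 and an AID tag from the mex-5 promoter. According to the paper this promoter acts in the germ line alone. Depleted animals carried the same transgene and GFP::tev::aid::attf-6 on chromosome I, so that ATTF-6, an AT-hook protein studied for its part in piRNA transcription, is degraded on auxin. Both were moved to 4 mM auxin at the L4 stage and collected as adults, with 2 libraries each made after PIR-1 treatment, which clones monophosphorylated and triphosphorylated RNAs alike. A further library of each was made after phosphatase and pyrophosphatase treatment (CIP-TAP), which enriches capped RNAs. In the deletion experiment all animals carried attf-6::3xflag and received no auxin. ΔPeak1 animals also lacked IV:13709294-13709476 and ΔPeak2 animals lacked IV:14387943-14388536, each an ATTF-6 binding site, with 2 PIR-1 libraries each and 2 from the parent strain, the deletion control.

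P granules are RNA and protein condensates that sit on the outer face of germ cell nuclei, over nuclear pores, and mRNAs pass through them on their way to the cytoplasm. PGL and GLH proteins form the granule in the adult germ line, whereas MEG proteins act mainly in the embryo. Most siRNAs in worms are copied from mRNA by RNA-dependent RNA polymerases in such granules. Some are bound by the Argonaute CSR-1, which targets expressed germline genes, and others by WAGO Argonautes, which silence their targets. The rarer 26G siRNAs are made by a Dicer complex with the polymerase RRF-3 and load other Argonautes, ALG-3, ALG-4 and ERGO-1. An siRNA entry therefore reports on small RNAs made against a gene's transcript, not on the transcript itself.

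The tables name pgl-1, pgl-3, glh-1, glh-4 and deps-1 as CSR and gender-neutral targets, and glh-2 as a CSR and oogenic target. They name meg-4 as a WAGO and oogenic target and meg-3 as oogenic alone. In the WBcel235 annotation, deps-1 (WBGene00022034, I:506473-509056), glh-4 (WBGene00001601, I:3727027-3731179), glh-2 (WBGene00001599, I:6513928-6517507) and glh-1 (WBGene00001598, I:6854478-6857536) lie on the plus strand of chromosome I. The gene pgl-1 (WBGene00003992, IV:6974441-6977318) lies on the minus strand of chromosome IV, 6731976 nt from the ΔPeak1 interval and 7410625 nt from the ΔPeak2 interval. It is the only member on the chromosome that carries both deletions. The gene pgl-3 (WBGene00003994, V:4755979-4758587) lies on the plus strand of chromosome V. On the X chromosome, meg-4 (WBGene00016485, X:1682954-1686419) lies on the plus strand and meg-3 (WBGene00001569, X:1986469-1989607) on the minus strand. Entries pool reads over a whole gene, so exons, introns and UTRs were not told apart. Only deps-1 overlapped another annotated gene, by 109 nt with Y65B4BL.7 on the opposite strand. It was also the only member with fractional counts, and the source of these fractions was not tested.

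Summed counts ran from 15454564 to 31931330 in the PIR-1 libraries and, after CIP-TAP treatment, came to 11832193 for the control and 6352629 for the depleted animals. Values below are normalised counts, that is, reads divided by the denominator the authors used for that library and multiplied by a fixed factor. Replicate libraries of a group correlated across entries at a Pearson r of 0.962 to 0.978. The paper calls the replicates of the depletion experiment biological, and the labels do not say whether those of the deletion experiment came from separate cultures, so p-values there measure a spread that may be technical. Summed over 7 miRNAs of the mir-35 family, which mark oocytes and embryos, the level was 99948 and 96713 in the auxin controls and 16155 and 10904 after depletion. The miRNA let-7, made in the soma, was at 14749 and 12172 in the auxin controls and at 16984 and 19892 after depletion. None of these 8 miRNAs was at 0 in any library. Of 2 somatic miRNAs looked for, let-7 was the only 1 found, and values of muscle and neuron miRNAs are not given. The mir-35 family thus moved with depletion, as the member siRNAs below did, and its part in their fall was not tested. RNA came from whole animals in which, according to the paper, the depleted germ line atrophied. Fewer germ cells and less siRNA per germ cell cannot be told apart.

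**Figure D1:**
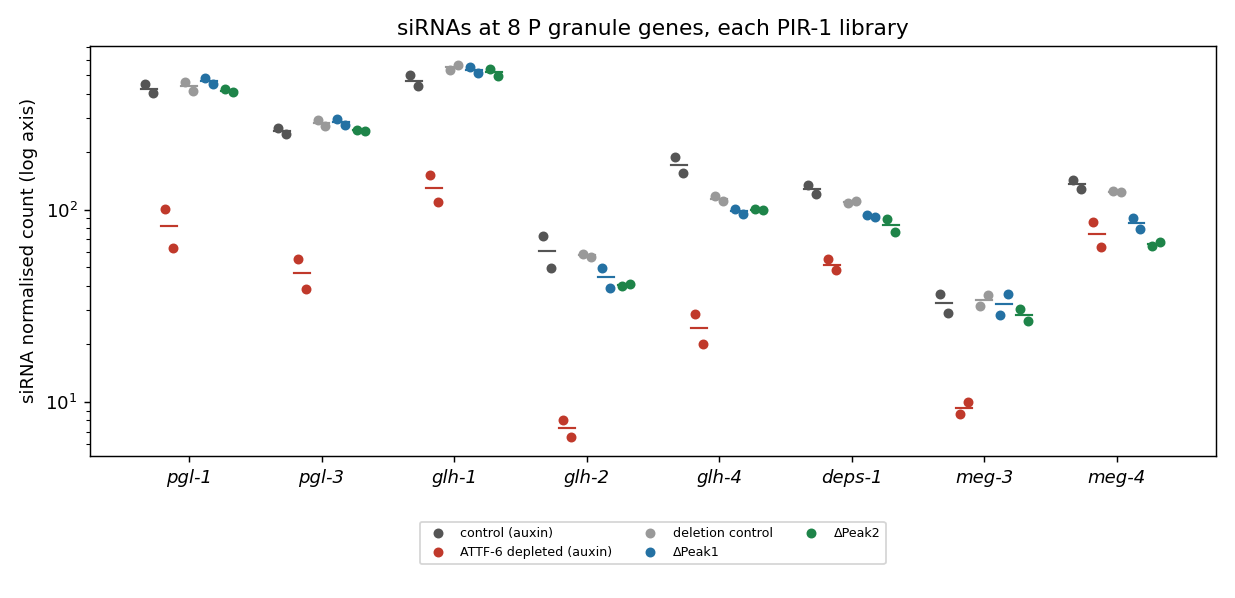
Normalised siRNA counts (log axis) of the 8 genes in each of the 10 PIR-1 libraries, 1 point per library coloured by group, with a bar at each group's mean. For glh-1 the depleted libraries were at 151 and 109 against 498 and 438 in the auxin controls. At meg-4 the ΔPeak2 libraries, at 64.5 and 67.8, lie at the level of the depleted ones, and at glh-4 all 6 libraries of the deletion experiment lie between the depleted and the auxin control libraries.

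Per kilobase of exon, the siRNA level in the auxin controls spanned more than an order of magnitude among the 8 genes. From the lowest, the mean levels were 11.8 ± 1.89 (SD, n = 2) at meg-3, 19.0 ± 5.0 at glh-2, 45.7 ± 6.27 at glh-4 and 49.9 ± 3.95 at meg-4. They went on to 62.2 ± 4.91 at deps-1, 112 ± 6.04 at pgl-3, 169 ± 15.4 at glh-1 and 171 ± 13.5 at pgl-1. The libraries of glh-4 and meg-4 overlapped on this scale, as did those of glh-1 and pgl-1, so neither pair can be ordered. The parent strain of the deletions gave nearly the same order, from 12.2 at meg-3 to 175 at pgl-1 and 198 at glh-1, except that glh-4 stood at 30.4, well below its level in the auxin controls. The genes pgl-1, pgl-3 and glh-1 thus carried the densest siRNAs, and meg-3 the sparsest. This order did not divide the PGL and GLH genes from the MEG genes. In the auxin controls glh-2 lay below meg-4. In the parent strain glh-4, at 30.4, also lay below meg-4, at 45.7.

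After depletion of ATTF-6, the siRNAs of all 8 genes were lower than in the auxin controls. The sum over the 8 entries was 1788 and 1568 in the auxin controls and 494 and 359 after depletion, a mean of 1678 ± 156 (SD, n = 2) against 426 ± 95.8, or 3.94-fold lower. With 2 libraries against 2, the exact two-sided permutation test of this sum cannot go below the p of 0.333 that it gave. Each of the 8 entries passed edgeR's quasi-likelihood test with a Benjamini-Hochberg adjusted p under 0.05 over all entries. This has to be read against a broad fall: 56.0% of all siRNA entries and 91.8% of those named CSR were also called lower, and 10.8% of all siRNA entries were called higher. The median log2 change was -2.11 over the 8 members, -1.78 over CSR entries, -1.45 over WAGO entries and -1.17 over all siRNA entries. All siRNAs summed fell less than the members, by 1.51-fold, so that the 8 genes took 0.179% and 0.177% of all siRNA counts in the controls and 0.0703% and 0.0658% after depletion.

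Both PGL genes encode RGG-box proteins that self-associate into the core of the granule. The siRNAs of pgl-1 were at 449 and 402 in the auxin controls and at 101 and 62.9 after depletion. Those of pgl-3 were at 267 and 247 in the controls against 55.4 and 38.5 in depleted animals. Every depleted library was thus far below both controls for each PGL gene. The log2 change in edgeR was -2.37 ± 0.35 (SE, adjusted p = 1.56e-19) for pgl-1 and -2.45 ± 0.27 (adjusted p = 7.38e-20) for pgl-3. On the level scale the means were 5.19-fold and 5.48-fold lower. The ratio of pgl-1 to pgl-3 siRNA, which no scaling of a library can change, was 1.69 and 1.63 in the controls against 1.83 and 1.64 in depleted animals. These ranges overlapped, so both PGL genes fell by amounts that these libraries do not separate.

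The GLH genes encode Vasa-related DEAD-box RNA helicases, of which GLH-1 is the principal adult one. At glh-1, the siRNA level was 498 and 438 in the controls against 151 and 109 in depleted animals. It was 72.4 and 49.7 at glh-2 in the controls against 8.06 and 6.54 in depleted animals, from 39 and 27 reads. At glh-4, it was 188 and 155 in the controls against 28.5 and 20.1 in depleted animals. The 3 helicase genes all dropped, with the smallest change at glh-1. Their log2 changes in edgeR were -1.85 ± 0.25 (SE, adjusted p = 6.71e-13) for glh-1, -3.06 ± 0.30 (adjusted p = 7.67e-23) for glh-2 and -2.81 ± 0.28 (adjusted p = 7.81e-24) for glh-4. In fold terms the means were 3.60, 8.37 and 7.05 times lower. The ratio of glh-1 to glh-2 siRNA went from 6.88 and 8.82 to 18.8 and 16.7, and that of glh-1 to glh-4 from 2.65 and 2.83 to 5.31 and 5.42. Neither ratio overlapped between the groups, and each had the exact permutation p of 0.333 that is the smallest possible here. The test thus cannot show that the helicase genes changed by unequal factors. In the parent strain of the deletions the ratio of glh-1 to glh-4 was 4.53 and 5.12, near its value in depleted animals, and that of glh-1 to glh-2 was 9.04 and 10.03.

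DEPS-1 is a P granule protein needed for normal GLH-1 accumulation and for RNA interference in the germ line. Its gene had 134 and 120 in the auxin controls and 55.0 and 48.2 after depletion. All depleted values lay below all controls, but the fall was among the smaller ones, with a mean 2.46-fold lower and a log2 change of -1.30 ± 0.12 (SE, edgeR adjusted p = 1.04e-06). As a share of the 8 genes' summed siRNA, deps-1 went from 7.58% to 12.3%. Its call was lost when libraries were scaled by TMM (log2 change -0.17, adjusted p = 0.446) or tested by DESeq2 (-0.25, adjusted p = 0.397).

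MEG-3 and MEG-4 are intrinsically disordered, largely redundant proteins that coat P granules in the embryo and recruit RNA. The siRNAs of meg-3 were at 36.4 and 29.0 in the controls against 8.67 and 9.92 in depleted animals. Those of meg-4 were at 143 and 128 in the controls against 85.9 and 63.7 in depleted animals. Both genes were lower in each depleted library, but meg-3 by more. The log2 change in edgeR was -1.82 ± 0.19 (SE, adjusted p = 3.77e-09, 3.52-fold lower) for meg-3 and -0.85 ± 0.23 (adjusted p = 0.00131, 1.81-fold lower) for meg-4. The ratio of meg-4 to meg-3 siRNA was 3.92 and 4.4 in the controls against 9.90 and 6.41 in depleted animals, with no overlap. The gene meg-4, which the tables name WAGO and not CSR, rose from 8.06% to 17.6% of the summed siRNA of the 8 genes.

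The smaller falls rest on the scaling. Scaling by TMM took the median of all entries from -1.39 to -0.28, at which 32.5% of siRNA entries were called lower and 30.1% higher, and it turned meg-4 to 0.27 (adjusted p = 0.199). In DESeq2, 25.4% of siRNA entries were called lower and 19.4% higher, and meg-4 was at 0.19 (adjusted p = 0.525). The fall of meg-4 was also no longer called when libraries were scaled to their siRNA counts (-0.29, adjusted p = 0.0963) or without control library 1 (-0.77, adjusted p = 0.0866), and that of meg-3 was lost in DESeq2 (-0.75, adjusted p = 0.0867). The siRNAs of pgl-1, pgl-3, glh-1, glh-2 and glh-4 were called lower under each of the 12 alternatives run.

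**Figure D2:**
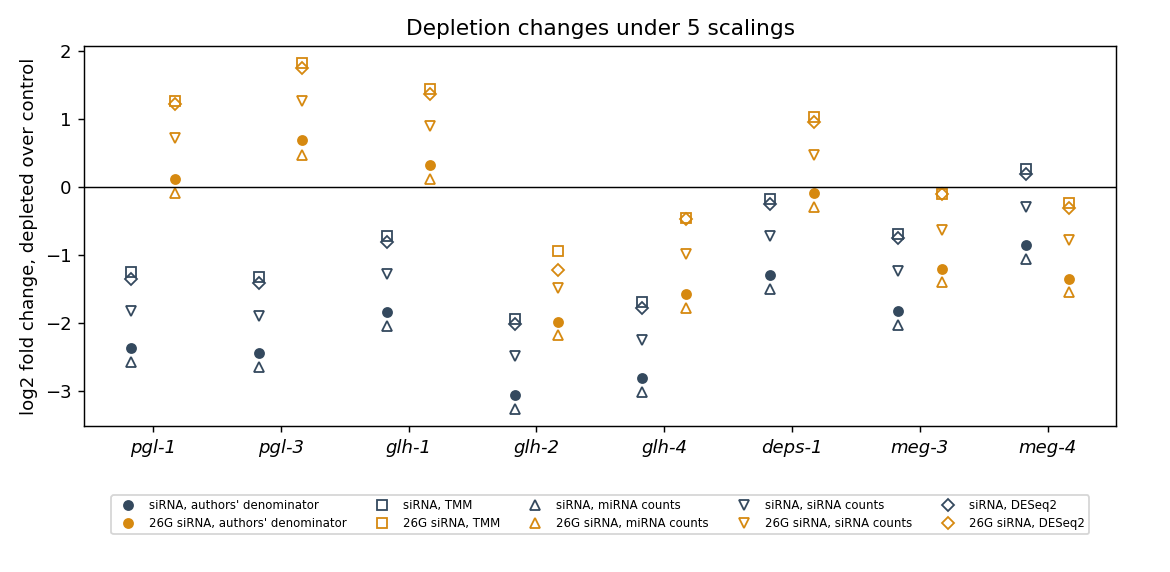
Log2 change on ATTF-6 depletion (auxin controls as reference) of the 8 genes under the authors' denominator, TMM, miRNA scaling, siRNA scaling and DESeq2, for siRNA and 26G siRNA entries, 1 symbol per setting. The siRNA symbols of a gene move up together from miRNA scaling to TMM: meg-4 siRNA lies at -0.85 under the authors' denominator and at 0.27 under TMM, where the median of all entries is -0.28.

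Unlike the siRNAs, the 26G siRNAs of the 8 genes did not all fall in the PIR-1 libraries. Their sum was 42.3 and 37.3 in the auxin controls and 42.8 and 43.3 after depletion, a log2 ratio of 0.11 (exact permutation p = 0.333, the smallest possible), and its sign depends on the scaling and on pgl-3 alone. In edgeR, 1 entry was called higher and 2 lower of the 8, against 11.7% higher and 26.4% lower among all 26G entries and 4.72% and 32.3% among those named CSR. The median log2 change was -0.65 over the members and -0.43 over all 26G entries. Under TMM scaling 7.58% of 26G entries were called lower and 36.2% higher.

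The 26G siRNAs of pgl-3 were at 11.1 and 10.3 in the auxin controls, from 87 and 46 reads, and at 16.9 and 17.7 after depletion, from 82 and 73 reads. Both depleted libraries were above both controls, by 1.62-fold in the mean, with a log2 change of 0.69 ± 0.06 (SE, edgeR adjusted p = 0.0349). This call was lost with miRNA scaling (0.48, adjusted p = 0.194), without the filter on low values (adjusted p = 0.0616) and without control library 1 (0.161), control library 2 (0.194) or depleted library 2 (0.0694). The direction was the same under all 12 alternatives.

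At pgl-1 the 26G level was 9.04 and 7.64 in the controls against 8.06 and 10.4 in depleted animals, and the groups overlapped (log2 change 0.12 ± 0.21, adjusted p = 0.751). At glh-1 it was 7.76 and 6.29 in the controls against 9.71 and 7.99 in depleted animals, which did not pass the test (0.32 ± 0.19, adjusted p = 0.411). At deps-1 it was 5.09 and 4.27 in the controls against 4.96 and 3.87 in depleted animals (-0.09 ± 0.20, adjusted p = 0.847). None of these 3 genes, whose siRNAs fell between 2.46-fold and 5.19-fold in the same libraries, had a 26G change past the test. Under TMM all 3 were called higher, at 1.26 for pgl-1, 1.44 for glh-1 and 1.03 for deps-1.

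The 26G siRNAs of glh-4 were at 3.44 and 2.47 in the controls against 0.826 and 1.21 in depleted animals, from 27 and 11 reads and then 4 and 5. Those of meg-4 were at 4.45 and 3.37 in the controls against 1.86 and 1.21 in depleted animals, from 35 and 15 reads and then 9 and 5. These were the 26G entries that fell, by -1.57 ± 0.27 (SE, edgeR adjusted p = 0.0152) and -1.35 ± 0.29 (adjusted p = 0.0142) on the log2 scale. Both calls were lost under TMM, siRNA scaling, DESeq2 and without control library 1, that of glh-4 also without depleted library 1 (adjusted p = 0.0933) and that of meg-4 without depleted library 2 (0.0870). At glh-2 the controls held 3 and 8 reads and the depleted libraries 1 and 1, and at meg-3 the controls held 8 and 5 and the depleted libraries 1 and 3. Both genes were too sparse after depletion, at 3 reads or fewer in each library, for a fold change to be given.

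**Figure D3:**
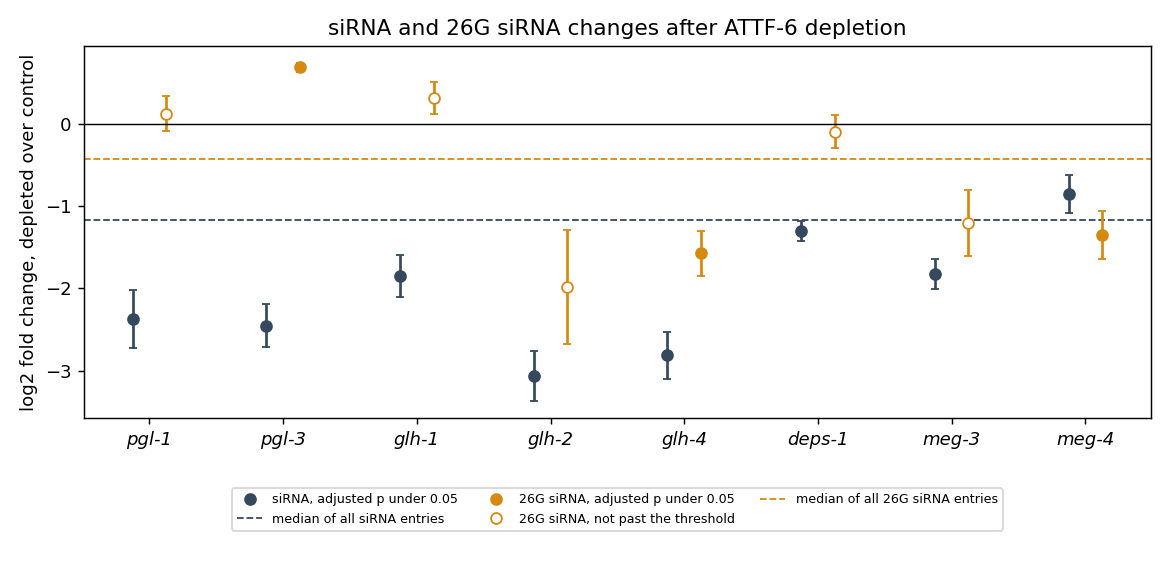
Log2 change on ATTF-6 depletion (auxin controls as reference) of each gene's siRNA and 26G siRNA entries, with error bars of 1 SE from the spread between 2 libraries per group and dashed lines at the medians of all siRNA and all 26G entries. Filled points passed the test. The siRNA points run from -3.06 at glh-2 to -0.85 at meg-4, and the 26G point of pgl-3 lies at 0.69.

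The number of 26G reads per 100 siRNA reads of the same gene does not depend on how libraries are scaled. Over the 8 genes together it was 2.36 and 2.38 in the auxin controls and 8.65 and 12.1 after depletion, 4.37-fold higher in the mean (exact permutation p = 0.333, the smallest possible). In the parent strain of the deletions it was 1.52 and 1.44. Summed over all genes it went from 4.37 and 5.12 to 6.19 and 7.35. At pgl-3, it went from 4.15 and 4.18 to 30.6 and 45.9, or 9.18-fold. At pgl-1, it went from 2.01 and 1.90 to 7.96 and 16.5, or 6.26-fold. At glh-1, it went from 1.56 and 1.44 to 6.41 and 7.33, or 4.59-fold. These 3 genes had the largest shifts of the 8, while deps-1 (3.79 and 3.56 to 9.01 and 8.04) and glh-4 (1.83 and 1.60 to 2.90 and 6.02) rose by 2.32-fold and 2.60-fold. In meg-4 the ratio went the other way, from 3.12 and 2.64 to 2.16 and 1.90, and in glh-2 and meg-3 the groups overlapped. In all, 5 of 8 genes had a higher ratio in both depleted libraries and 1 a lower one. Among genes with both entries tested, 41.3% were higher without overlap and 16.0% lower, and among those named CSR 50.9% and 7.42%. The median fold of the ratio was 1.38 over all such genes and 1.76 over CSR genes.

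**Figure D4:**
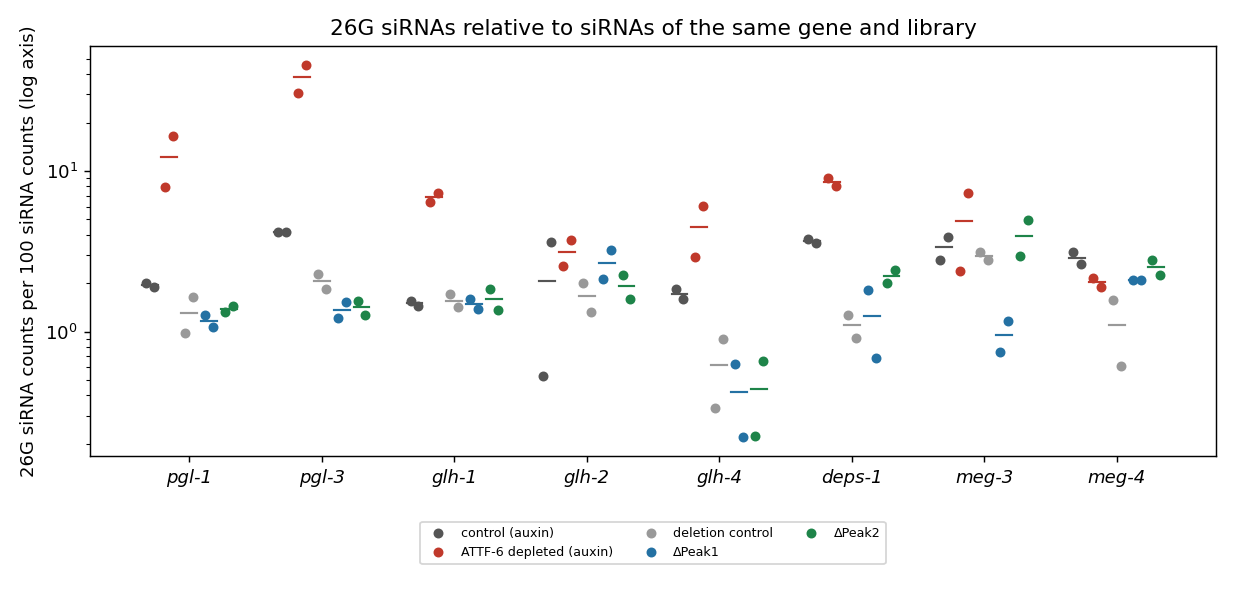
26G siRNA reads per 100 siRNA reads (log axis) of each gene in the 10 PIR-1 libraries, 1 point per library with a bar at each group's mean. At pgl-3 the depleted libraries lie at 30.6 and 45.9 against 4.15 and 4.18, and at meg-4 they lie below the controls.

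The CIP-TAP libraries, 1 per group and so without a test, gave the same direction for the siRNAs of all 8 genes. All siRNAs summed also fell in this pair, from 1107670 to 638353, while all 26G siRNAs were at 37806 and 36172. The paper used this treatment to clone capped RNAs. How well the siRNA and 26G reads left after it reflect the levels of these RNAs was not tested. Folds carry exact 95% intervals that cover counting error only. The siRNAs of glh-2 went from 365 reads to 5, 55.1-fold lower (23.4 to 171) in normalised counts. Those of glh-4, pgl-3 and glh-1 were 8.02-fold (6.61 to 9.82), 7.18-fold (6.08 to 8.54) and 6.72-fold (5.88 to 7.71) lower. Those of meg-3 were 4.87-fold (3.03 to 8.24), of pgl-1 3.60-fold (3.23 to 4.01), of deps-1 3.07-fold (2.67 to 3.52) and of meg-4 2.68-fold (2.37 to 3.04) lower. The gene glh-2 was thus again the furthest down and meg-4 the least. For 26G siRNAs, pgl-3 went from 15 reads to 0 and glh-2 from 13 to 0, where the floor of 3 reads corresponds to a normalised count of 0.789. At glh-4 and meg-3, 26G reads were at 0 in both libraries. The other 26G entries were also lower, with 26 reads and then 8 at pgl-1, 29 and then 16 at glh-1, 8 and then 2 at deps-1 and 31 and then 10 at meg-4. Summed over the 8 genes, the 26G level after CIP-TAP treatment was 24.2 without depletion and 9.46 with it, so the rise of pgl-3 and the steady sum of the PIR-1 libraries were not seen in this pair. The 26G reads per 100 siRNA reads went from 1.28 to 2.34, in the same direction as in the PIR-1 libraries.

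Deleting either ATTF-6 binding site left most of these siRNAs near the level of the parent strain. The sum over the 8 siRNA entries was 1722 and 1691 in the parent, 1691 and 1577 in ΔPeak1 and 1548 and 1469 in ΔPeak2. In ΔPeak1, 0 of 8 siRNA entries were called by edgeR, against 0.337% of all siRNA entries, with 2 at an unadjusted p under 0.05 and 0 called by DESeq2. For 26G siRNAs it was 0 of 8 in both strains, with 0 at an unadjusted p under 0.05 and 0 called by DESeq2; 0.0% of all 26G entries were called in ΔPeak1 and 0.0502% in ΔPeak2. In ΔPeak2, 1 of 8 siRNA entries was called lower by edgeR, against 0.485% of all siRNA entries and 1.77% of those named WAGO. There, 3 members were at an unadjusted p under 0.05 and 1 was called by DESeq2. Shares of all entries at an unadjusted p under 0.05 or called by DESeq2 are not given for the deletions. The member counts of these 2 kinds thus have no background. The siRNAs of pgl-1, on the deleted chromosome, were at 460 and 414 in the parent, 481 and 448 in ΔPeak1 and 425 and 407 in ΔPeak2, which overlapped in both comparisons.

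The entry called in ΔPeak2 was meg-4, on the X chromosome. Its siRNA level was 125 and 123 in the parent, 90.8 and 79.6 in ΔPeak1 and 64.5 and 67.8 in ΔPeak2. Both deletion strains were below the parent without overlap, and ΔPeak2 was the lowest. The log2 change was -0.91 ± 0.04 (SE, edgeR adjusted p = 0.0255, 1.87-fold lower) in ΔPeak2 and -0.54 ± 0.10 (adjusted p = 0.360, 1.46-fold) in ΔPeak1. The difference between the deletions, a contrast chosen after the data were seen, was -0.36 ± 0.10 (adjusted p = 0.981, where 0.419% of all siRNA entries were called), so the fall is not shown to be particular to ΔPeak2. The ΔPeak2 call needs all 4 libraries: without any 1 of them the log2 change stayed between -0.94 and -0.87, with adjusted p from 0.407 to 0.591.

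The other members did not pass the test in either deletion. At glh-2, the level was 58.8 and 56.6 in the parent, 49.8 and 39.0 in ΔPeak1 and 40.1 and 40.8 in ΔPeak2 (log2 changes -0.38 and -0.51, adjusted p = 0.945 and 0.346). At deps-1, it was 108 and 110 in the parent, 93.1 and 91.2 in ΔPeak1 and 88.9 and 76.5 in ΔPeak2 (-0.24 and -0.40, adjusted p = 0.945 and 0.359). At glh-4, it was 117 and 111 in the parent, 101 and 95.3 in ΔPeak1 and 100 and 99.7 in ΔPeak2 (-0.22 and -0.19, adjusted p = 0.945 and 0.673). With meg-4, these genes made up 4 of 8 members whose ΔPeak1 libraries both lay below both parent libraries, which held for 17.8% of all siRNA entries. In ΔPeak2 it held for 6 of 8, with pgl-3 (260 and 257 against 291 and 272) and meg-3 (30.3 and 26.4 against 31.4 and 36.1), and for 31.7% of all siRNA entries. Over the 8 genes the median log2 change was -0.14 in ΔPeak1 and -0.22 in ΔPeak2, beside 0.01 and -0.09 over all siRNA entries. The deletions share their parent libraries, so their values are not independent of each other.

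**Figure D5:**
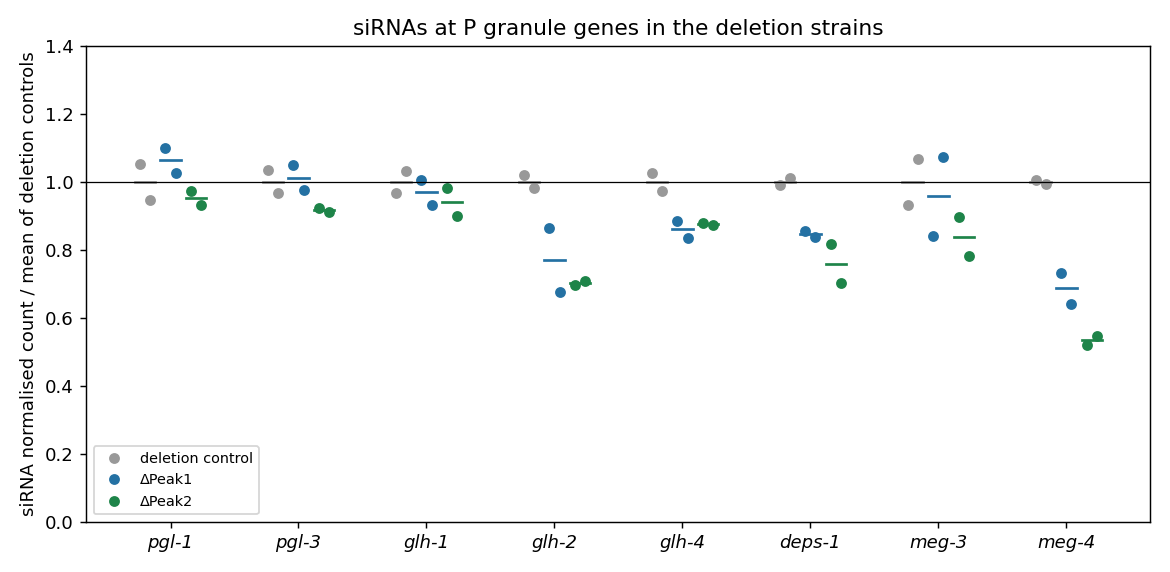
Normalised siRNA counts of the 8 genes in the 6 PIR-1 libraries of the deletion experiment, each divided by the mean of both parent libraries (deletion control), 1 point per library with a bar at each group's mean. For meg-4 all 4 deletion libraries lie below the parent, lowest in ΔPeak2. The pgl-1 libraries of both deletions overlap the parent, and the pgl-3 libraries do so in ΔPeak1 but not in ΔPeak2.

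The control groups of both experiments were also set side by side, a comparison added after the data were seen, in which strain, auxin and experiment cannot be told apart. Of the siRNA entries 1 of 8 differed, glh-4, at 188 and 155 in the auxin controls and 117 and 111 in the parent of the deletions (log2 difference 0.59 ± 0.15, edgeR adjusted p = 0.0142), where 10.5% of all siRNA entries were called higher and 22.0% lower. Of the 26G entries 4 of 8 were higher in the auxin controls, where 24.5% of all 26G entries were called higher. At deps-1, 26G siRNAs were at 5.09 and 4.27 against 1.38 and 1.00 (log2 difference 1.95 ± 0.20, adjusted p = 0.00257). At glh-4, they were at 3.44 and 2.47 against 0.393 and 1.00 (2.14 ± 0.43, adjusted p = 0.0126), the parent libraries holding 2 and 4 reads. Those of meg-4 and pgl-3 were 2.88-fold and 1.83-fold higher (adjusted p = 0.0245 and 0.03). For these 4 genes the fold between the control groups (3.94 at deps-1, 4.24 at glh-4, 2.88 at meg-4 and 1.83 at pgl-3) was larger than that between auxin controls and depleted animals (1.06, 2.90, 2.55 and 1.62 in either direction). They were picked by their call between the control groups, which favours this order. Of the others, pgl-1 gave 1.48-fold against 1.11-fold and glh-1 1.21-fold against 1.26-fold. The genes glh-2 and meg-3 were too sparse after depletion to be compared. With siRNA scaling 5 of 8 siRNA entries (pgl-1, glh-2, glh-4, deps-1 and meg-4) and 5 of 8 26G entries were called higher in the auxin controls. That scaling moved the median log2 difference of all siRNA entries from -0.23 to 0.15. For all 26G entries it moved the median from 0.26 to 0.64. Shares of all entries called under siRNA or miRNA scaling are not given for this comparison. The member counts under these scalings therefore cannot be told from a shift of all entries. With miRNA scaling 0 siRNA entries were called higher and 1 lower, glh-1 (-0.54, adjusted p = 0.0411), and the calls of glh-4 siRNA (0.27, adjusted p = 0.343), pgl-3 26G (0.55, adjusted p = 0.200) and meg-4 26G (1.17, adjusted p = 0.0795) were lost.

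A list of 36 other genes of germ granules, chosen with earlier results of these data known, was read in the same way, and 32 of them were in the tables. On depletion 28 of these 32 siRNA entries fell and 1 rose in edgeR, with a median log2 change of -1.75. This 87.5% was above the 56.0% of all siRNA entries called lower and near the 91.8% of CSR entries, and 27 of the 32 genes are named CSR. All 13 genes for RNA-binding regulators found in P granules fell, as did all 8 for small RNA factors and 7 of 11 for relatives and partners of the members. The largest falls were at pgl-2, a paralogue of the PGL genes (33.2 and 34.5 to 3.82 and 2.66, log2 change -3.38 ± 0.23, adjusted p = 3.07e-21), at simr-1, a Tudor-domain gene of a neighbouring granule (394 and 351 to 72.7 and 39.0, -2.73 ± 0.45, adjusted p = 1.9e-24), and at the Argonaute gene csr-1 (657 and 585 to 117 and 75.2, -2.69 ± 0.33, adjusted p = 1.45e-24). The entry that rose was zyx-1, for the LIM-domain protein zyxin, from 2.93 and 3.37 to 6.20 and 6.05 (adjusted p = 0.0267), a call lost without control library 1, control library 2 or depleted library 1. Of 29 26G entries tested, 13 fell and 1 rose, with a median of -1.29. The share that fell, 44.8%, stands beside 26.4% of all 26G entries and 32.3% of those named CSR, and 26 of the 29 genes are named CSR. The 26G entry that rose was ife-1, for a cap-binding translation factor of P granules, from 7.06 and 5.73 to 12.5 and 13.0 (0.95 ± 0.14, adjusted p = 0.0064). Those furthest down by the fitted change were pgl-2 (1.27 and 1.12 to 0.207 and 0), simr-1 (7.89 and 9.89 to 1.65 and 0.726) and nos-2, for a Nanos-related RNA-binding protein (1.4 and 1.57 to 0 and 0.484). At pgl-2 and nos-2 each depleted library held 3 reads or fewer, so their place in this order is uncertain. In both deletion strains edgeR called 0 of the 32 siRNA entries, and DESeq2 called 0. At an unadjusted p under 0.05 there were 0 in ΔPeak1 and 2 in ΔPeak2, again without a share of all entries beside them.

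Across the 10 PIR-1 libraries, the siRNA entries outside the 8 genes that were most like their mean profile on the log2 scale were hcp-4 (a centromere protein), puf-11 (a Pumilio-family RNA-binding protein) and pid-5 (a factor of piRNA silencing), each with a Pearson r of 0.999 and each named CSR. Such likeness was common, since 61.0% of 6931 siRNA entries had an r over 0.9, and the 10 points share libraries and depth. Among the members, glh-2 was closest to the mean, at rank 55, and meg-4 was furthest, at rank 5932 with an r of 0.566. Each member is part of that mean, so its rank cannot be set against those of outside entries.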

How the data were processed

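The authors trimmed the reads with TrimGalore, aligned them to WormBase WS279 with Bowtie allowing no mismatch and counted them per feature with BEDTools; the rules for siRNA and 26G entries are not given in the sources used here. The deposited estimated counts can be fractions (84.9% to 89.6% were whole in a library). The deposited normalised signal is the count divided by 1 denominator per library, from 3992305 to 7857706 in the PIR-1 libraries. The PIR-1 counts summed to more than that denominator, so which reads entered it is unsettled.

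Rounded counts went into the quasi-likelihood test of edgeR 4.0.16 (R 4.3.3; library size set to the denominator, mean normalised count of at least 0.5, Benjamini-Hochberg over all entries, threshold 0.05), after the code was tested on simulated data. SE came from log2(normalised count + 0.5). Ratios and sums used exact permutation tests in scipy 1.17.1. Members and lists were chosen with earlier results of these data known. Of the other germ granule genes, the 3 largest changes past the threshold in each direction were named. Alternatives were TMM, miRNA and siRNA scaling, no filter, a minimum of 5, DESeq2 1.42.0, all 10 PIR-1 libraries in 1 fit, a replicate block and leaving out each library. Intervals and floors (3 counts) cover counting error only. Coordinates were joined by gene ID from the Ensembl annotation of WBcel235, and the labels name no build for the deletion intervals. Sequences are not used here.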

Additional observations from a re-analysis of the deposited data

How the results depend on the processing

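With 2 libraries per group, and with 26G entries of the 8 genes often under 50 reads, small 26G changes were not detectable at this depth. On depletion, the count of member siRNA entries called lower (8) was 6 under TMM, 7 under siRNA scaling and 5 in DESeq2. The shares of all siRNA entries called lower were then 32.5%, 44.6% and 25.4%. The count of member 26G entries called lower (2) was 0 under TMM, siRNA scaling, a minimum of 5 and DESeq2, and 0 to 2 without single libraries. The count called higher (1) was 4 under TMM, 2 under siRNA scaling, 3 in DESeq2, 0 under miRNA scaling and without a filter, and 0 to 1 without single libraries. Of all 26G entries, 36.2% were called higher under TMM, 21.3% under siRNA scaling, 22.5% in DESeq2 and 7.52% under miRNA scaling. The larger member counts thus came with a larger share of all 26G entries called higher. TMM reversed meg-4 siRNA (0.27) and deps-1 26G (1.03), and DESeq2 reversed meg-4 siRNA (0.19). The log2 ratio of the summed siRNA (-1.98) was -1.42 under siRNA scaling. That of the summed 26G siRNA (0.11) was -0.10 under miRNA scaling, 0.70 under siRNA scaling, -0.18 without the member with the highest count and 0.027 to 0.21 without single libraries. In ΔPeak2 the summed siRNA ratio (-0.18) was -0.37 under miRNA scaling, -0.13 under siRNA scaling and -0.22 without the highest member, and the summed 26G ratio (-0.10) was -0.29 under miRNA scaling and 0.036 without the highest member. For the other germ granule genes, siRNA entries called lower (28) were 17 in DESeq2. Those called higher (1) were 3 under TMM, 2 under siRNA scaling and in DESeq2, and 0 under miRNA scaling and a minimum of 5. They were 0 to 1 without single libraries. Of all siRNA entries, 10.8% were called higher under the authors' denominator and 30.1% under TMM. The share was 18.3% under siRNA scaling, 19.4% in DESeq2 and 7.63% under miRNA scaling. The 26G entries of the other germ granule genes called lower (13) were 2 under TMM, 4 under siRNA scaling and 1 in DESeq2. They were 5 at a minimum of 5 and 6 to 12 without single libraries. Those called higher (1) were 6 under TMM, 3 under siRNA scaling, 5 in DESeq2 and 0 under miRNA scaling. They were 0 to 2 without single libraries. Of all 6904 26G entries tested, 1822 were called lower under the authors' denominator, 523 under TMM, 831 under siRNA scaling and 158 in DESeq2. Under TMM, siRNA scaling and DESeq2, the smaller counts of 26G entries called lower, for these genes and the members, thus came with fewer such calls among all 26G entries. Between the control groups, siRNA scaling turned pgl-1 siRNA from -0.04 to 0.35. A minimum of 5 leaves fewer entries tested; the cause of the other changes was not tested. Same-numbered libraries deviated with r = 0.14 in the depletion experiment and between -0.05 and -0.003 in the deletion experiment, so numbers were taken as names only. A replicate block gave 8 member siRNA entries lower, 2 26G entries lower and 1 higher on depletion, and 0 siRNA entries lower in ΔPeak2, where meg-4 was at -0.90 (adjusted p = 0.0788). In ΔPeak2 that count was 0 to 1 without single libraries.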
